A study of Mus musculus with 11 samples.

Results

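The 9 genes described here carry noradrenaline and adrenaline signals in the heart: the receptor genes Adrb1, Adra1a and Adra1b, the gene of the stimulatory G protein (Gnas), the adenylyl cyclase genes Adcy5, Adcy6 and Adcy9, and the phosphodiesterase genes Pde3a and Pde4d. They were taken by gene name from a table of 54532 genes, where each name matched 1 row, and all 9 were among the 14862 genes with enough counts to test. The RNA came from whole hearts of C57BL/6 mice, all with a labelled time of 26 weeks. There were 4 hearts labelled HFD+STZ+AAV METTL3 (called METTL3 hearts here), 4 labelled HFD+STZ and 3 labelled Chow. HFD most often means a high-fat diet and STZ streptozotocin, which kills insulin-producing cells, and AAV for an adeno-associated virus, here carrying METTL3, the enzyme that methylates adenosines in mRNA. The METTL3 hearts therefore carry the HFD+STZ treatment too. The sources used here name no control virus for the HFD+STZ hearts and no promoter for METTL3, so virus and METTL3 cannot be told apart. They also give neither the age nor the sex of the mice, nor whether hearts were pooled.

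Beta-1 receptors, the main beta receptor of heart muscle, act through the stimulatory G protein on adenylyl cyclases, which make the second messenger cAMP. cAMP activates protein kinase A, which raises the rate and force of the heartbeat, and phosphodiesterases break cAMP down again. Alpha-1 receptors use a separate route, through Gq proteins and phospholipase C. Long catecholamine exposure is known to lower beta-1 receptor levels in failing hearts.

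Promoter windows are shown for Adra1b, Gnas and Adcy9, the genes with the largest fitted differences between groups among members that have one listed. They are RefSeq windows on build GRCm38.p6, from 250 bases before to 50 after a gene's start, read on the gene's strand. Capitals mark the GC box GGGCGG, bound by Sp1-type factors, and TGACG, the core of the cAMP response element, on either strand.
Adra1b, chr11:43836440-43836739, minus strand: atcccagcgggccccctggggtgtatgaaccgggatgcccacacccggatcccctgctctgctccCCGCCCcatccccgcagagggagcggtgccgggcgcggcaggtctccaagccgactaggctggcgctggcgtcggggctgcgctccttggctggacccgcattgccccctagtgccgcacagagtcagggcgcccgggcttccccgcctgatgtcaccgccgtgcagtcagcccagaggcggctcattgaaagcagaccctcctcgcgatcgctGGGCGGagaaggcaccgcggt
Adra1b, second start, chr11:43901188-43901487, minus strand: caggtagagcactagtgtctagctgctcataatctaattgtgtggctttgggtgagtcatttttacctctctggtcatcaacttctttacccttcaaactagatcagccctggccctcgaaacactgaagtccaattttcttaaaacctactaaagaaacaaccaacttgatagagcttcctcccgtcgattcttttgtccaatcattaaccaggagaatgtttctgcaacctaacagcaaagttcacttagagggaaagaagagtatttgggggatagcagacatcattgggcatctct
Gnas, chr2:174329756-174330055, plus strand: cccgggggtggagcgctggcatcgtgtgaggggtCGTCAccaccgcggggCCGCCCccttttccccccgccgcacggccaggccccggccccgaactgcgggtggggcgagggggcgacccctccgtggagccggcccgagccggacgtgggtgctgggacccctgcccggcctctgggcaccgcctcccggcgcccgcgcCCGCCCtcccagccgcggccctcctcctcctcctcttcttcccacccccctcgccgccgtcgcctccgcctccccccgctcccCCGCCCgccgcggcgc
Adcy9, chr16:4420449-4420748, minus strand: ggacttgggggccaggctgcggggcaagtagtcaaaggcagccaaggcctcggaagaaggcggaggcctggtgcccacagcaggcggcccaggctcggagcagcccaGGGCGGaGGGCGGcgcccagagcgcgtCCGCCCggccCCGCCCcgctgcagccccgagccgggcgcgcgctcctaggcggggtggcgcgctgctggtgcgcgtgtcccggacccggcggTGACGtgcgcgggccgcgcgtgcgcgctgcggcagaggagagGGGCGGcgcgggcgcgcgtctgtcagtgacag

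The 2 starts of Adra1b differed in make-up. The window shown first was 71.3% G and C with 2 GC boxes, and the second was 42.3% G and C with neither motif. Gnas has 4 listed windows, and the one shown, the last along the gene, holds the most motifs, 3 GC boxes and 1 TGACG. Of its other 3, the first had 1 GC box and no TGACG, and the 2 that overlap each other had 1 TGACG each and no GC box. The Adcy9 window had 5 GC boxes and 1 TGACG. Windows were listed for 6 of the 9 genes, 10 in all. A GC box was in 6 of the 10 and TGACG in 5, against 35.7% and 20.8% of all 32851 listed windows. The TGACG of the 2 overlapping Gnas windows is 1 shared site counted in both, so the 10 windows are not independent. The whole element TGACGTCA, which contains TGACG, was in 1.79% of all windows and in 0 of these 10. Letter matches of this kind are descriptions and show no binding.

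The genes lie on separate chromosomes, except Adcy5 and Adcy9, which are both on chromosome 16. In mm10 coordinates as deposited, Adrb1 (ENSMUSG00000035283) spans chr19:56722372-56724862 on the plus strand. Gnas (ENSMUSG00000027523) spans chr2:174284320-174346744, also plus, in an imprinted locus with several alternative first exons, which the counts join. Adra1b (ENSMUSG00000050541) spans chr11:43774606-43901210 and Adcy6 (ENSMUSG00000022994) chr15:98589973-98610076, both minus. Pde3a (ENSMUSG00000041741) covers chr6:141249269-141507448 on the plus strand. The longest gene, Pde4d, spans 1503514 bases and the shortest, Adrb1, 2491 bases. Median GC content of the transcripts was 55.4%, against 49.5% over all genes tested, and 8 of 9 members lay above that median. Pde3a, at 43.0%, was the exception.

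Libraries held 13900531 to 16952639 counts, and the mitochondrial genome took 37.7% to 45.5% in METTL3 hearts, 28.6% to 32.5% in HFD+STZ hearts and 9.28% to 27.4% in Chow hearts. Chow replicate 3 stood apart, with the lowest mitochondrial share and 15734 genes detected, where the other libraries had 17317 to 20769. Sample codes in the labels fall into 2 ranges, 25 to 33 and 78 to 98. All Chow libraries, HFD+STZ replicate 1 and METTL3 replicate 4 have codes of 78 to 98. What the codes stand for is not stated in the labels. Mettl3 itself had 54 to 152 counts per library. It averaged 8.39 ± 2.19 CPM in METTL3 hearts and 6.35 ± 1.58 CPM in HFD+STZ hearts (SD, n = 4 each), a log2 fold change of 0.40 (SE 0.32) that did not pass the edgeR threshold. At this depth and spread no higher Mettl3 level could be detected, so directions given for those hearts rest on the label. The 10 cardiomyocyte markers summed to 39231 to 45016 CPM in METTL3 hearts, 36549 to 51256 CPM in HFD+STZ hearts and 42571 to 51268 CPM in Chow hearts. Single cardiomyocyte markers did not all move alike. Of the 10, 3 lay higher in every METTL3 heart than in every HFD+STZ heart, Pln among them, as did 807 of 14862 genes. In that comparison 6 of the 10 had log2 fold changes below 0. Against Chow hearts the counts were also 3 and 6, where 10.5% of all genes were higher without overlap. None of the 10 passed the edgeR threshold in any comparison. Markers of other cell types were not all level either. The 7 macrophage markers summed to 154 to 292 CPM in METTL3 hearts, 232 to 560.1 CPM in HFD+STZ hearts and 393 to 770.2 CPM in Chow hearts. All 7 had log2 fold changes below 0 in METTL3 over Chow, as did 7549 of 14862 genes, with a median of -1.12 for the 7. Of these, C1qa (-2.57, SE 0.39) and Csf1r (-1.33, SE 0.27) fell, at edgeR adjusted p = 0.0101 and 0.0284. The 5 Schwann cell markers summed to 24.7 to 35.4 CPM in METTL3 hearts, 12.3 to 19.0 CPM in HFD+STZ hearts and 12.3 to 21.4 CPM in Chow hearts, and 1 of the 4 tested, Cdh19, rose in METTL3 over Chow (1.29, SE 0.26, edgeR adjusted p = 0.0279). The 5 atrial muscle markers summed to 19.4 to 89.7 CPM in METTL3 hearts, 24.3 to 135 CPM in HFD+STZ hearts and 45.1 to 136 CPM in Chow hearts. All 4 tested were below 0 in METTL3 over HFD+STZ, as were 7486 of 14862 genes. The median log2 fold change of the 4 was -0.99, and none passed. The 6 adipocyte markers summed to at most 1.13 CPM in METTL3 hearts, 5.31 CPM in HFD+STZ hearts and 10.8 CPM in Chow hearts. Only 2 had enough counts to test. Both were lower in every METTL3 heart than in every Chow heart, as were 1228 of 14862 genes. No fibroblast, endothelial, smooth muscle or erythroid marker passed in any comparison. The part of other cell types in the values below was not tested. In whole-heart RNA, fewer cells of a type and less RNA per cell cannot be told apart.

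Levels are given first for the receptors, as CPM, counts relative to library size after TMM scaling. Adrb1, the beta-1 receptor gene, had 32.2, 17.7, 20.2 and 17.7 CPM in METTL3 replicates 1 to 4. It had 20, 32.5, 25.7 and 25 CPM in HFD+STZ replicates 1 to 4, and 37.7, 26.7 and 9.01 CPM in Chow replicates 1 to 3. The 3 groups overlapped throughout, and the highest and lowest of all 11 values were both Chow libraries.

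Adra1a, 1 of the 2 alpha-1 receptor genes described here, had 19.0, 6.18, 20.1 and 10.3 CPM in METTL3 hearts, 12.5, 14.8, 32.8 and 20.3 CPM in HFD+STZ hearts, and 19.1, 16.8 and 3.88 CPM in Chow hearts. Its groups overlapped too. Adra1b, the other alpha-1 gene, had 41.9, 26.2, 39.9 and 35.9 CPM in METTL3 hearts, 38.8, 60.4, 50.2 and 38.7 CPM in HFD+STZ hearts, and 27.7, 27.1 and 14 CPM in Chow hearts. Every HFD+STZ library lay above every Chow library for Adra1b, and 3 of the 4 METTL3 libraries did so.

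**Figure D1:**
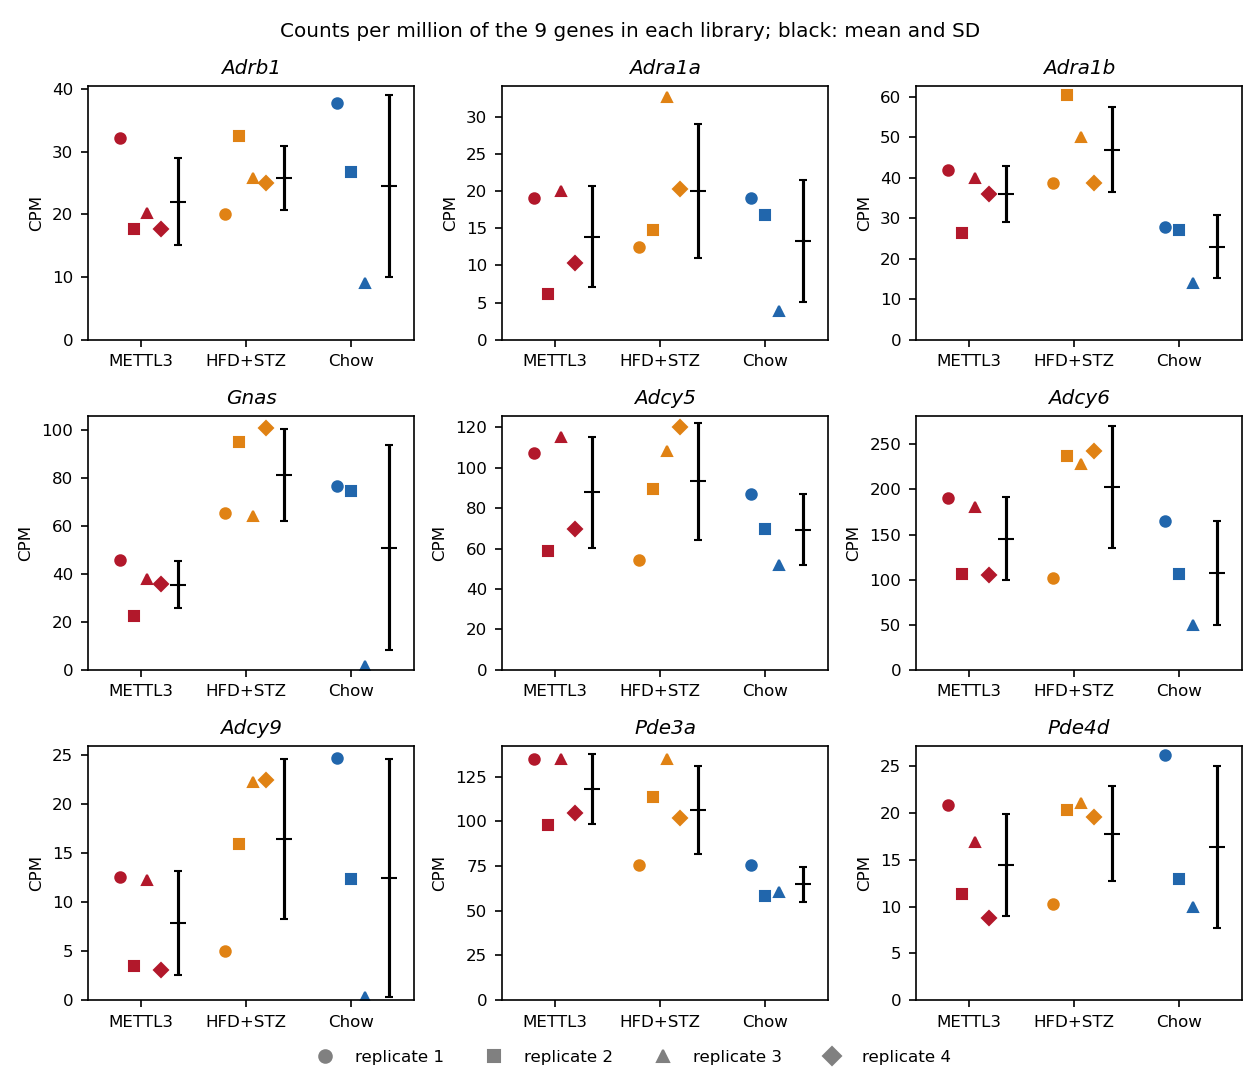
CPM (y axis, linear from 0) of the 9 genes in each of the 11 libraries, by group on the x axis, with 1 symbol per replicate number and the group mean and SD in black. HFD+STZ lies wholly above Chow for Adra1b, METTL3 wholly below HFD+STZ for Gnas and METTL3 wholly above Chow for Pde3a, and Chow replicate 3 is near the axis for Gnas and Adcy9.

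Gnas encodes the alpha subunit of the stimulatory G protein. It had 45.9, 22.2, 38.0 and 35.8 CPM in METTL3 hearts, 65.4, 95, 64.3 and 101 CPM in HFD+STZ hearts, and 76.6, 74.6 and 1.46 CPM in Chow hearts. All METTL3 values were below all HFD+STZ values and below Chow replicates 1 and 2. Chow replicate 3, with 26 counts against 1479 and 1388 in the other Chow libraries, held 1.94% of their mean level.

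Of the cyclases, Adcy5 and Adcy6 are the forms that predominate in heart muscle. Adcy6 had 190.3, 106, 181 and 105 CPM in METTL3 hearts, 102, 237, 229 and 243 CPM in HFD+STZ hearts, and 165, 106 and 49.8 CPM in Chow hearts. HFD+STZ replicate 1 lay far below the rest of its group, whose other values span only 229 to 243 CPM. Adcy5 had 107, 59.0, 115 and 69.8 CPM in METTL3 hearts, 54.5, 89.6, 109 and 120.3 CPM in HFD+STZ hearts, and 86.8, 69.6 and 51.8 CPM in Chow hearts. Its groups overlapped.

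Adcy9 encodes a cyclase that, unlike most, responds little to the plant compound forskolin. It had 12.5, 3.43, 12.2 and 3.05 CPM in METTL3 hearts, 5.03, 15.9, 22.2 and 22.4 CPM in HFD+STZ hearts, and 24.6, 12.4 and 0.338 CPM in Chow hearts. METTL3 replicates 2 and 4, HFD+STZ replicate 1 and Chow replicate 3 were all low, the last with 6 counts, so within-group spread was wide everywhere. The highest library was 4.11 times the lowest in METTL3 hearts, 4.46 times in HFD+STZ hearts and 72.9 times in Chow hearts.

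Pde3a encodes a cGMP-inhibited phosphodiesterase, the target of milrinone. It had 135, 97.9, 135 and 105 CPM in METTL3 hearts, 75.3, 113, 135 and 102 CPM in HFD+STZ hearts, and 75.8, 58.1 and 60.3 CPM in Chow hearts. All METTL3 values lay above all Chow values, and Chow replicate 3 did not stand apart for this gene. Pde4d, a cAMP-specific phosphodiesterase found with beta receptors and ryanodine receptors, had 20.9, 11.4, 16.9 and 8.78 CPM in METTL3 hearts, 10.3, 20.4, 21 and 19.6 CPM in HFD+STZ hearts, and 26.2, 12.9 and 9.96 CPM in Chow hearts. Its groups overlapped.

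The low and high values fell on the same libraries for most of the genes. Within METTL3 hearts, replicate 1 was the highest for 7 of the 9 genes and replicate 3 for the other 2, while replicate 2 was the lowest for 5 and replicate 4 for 4. In HFD+STZ hearts, replicate 1 was the lowest for 7 of 9. Chow replicate 1 was the highest Chow library for all 9 and Chow replicate 3 the lowest for 8, the exception being Pde3a. The mitochondrial share did not follow these libraries in 1 direction. The low METTL3 replicates 2 and 4 had the higher shares of their group, 43.1% and 45.5%, where replicates 1 and 3 had 40.0% and 37.7%. The low HFD+STZ replicate 1, at 30.6%, lay inside its group's range. The low Chow replicate 3, at 9.28%, lay below the 25.3% and 27.4% of the other Chow libraries. The number of genes detected was lower in these low libraries in each group. METTL3 replicates 2 and 4 had 17317 and 17646, against 19157 and 18971 in replicates 1 and 3. HFD+STZ replicate 1 had 19814, where its group had up to 20410. Chow replicate 3 had 15734, against 20769 and 20672. The part of library make-up in the low values was not tested.

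**Figure D2:**
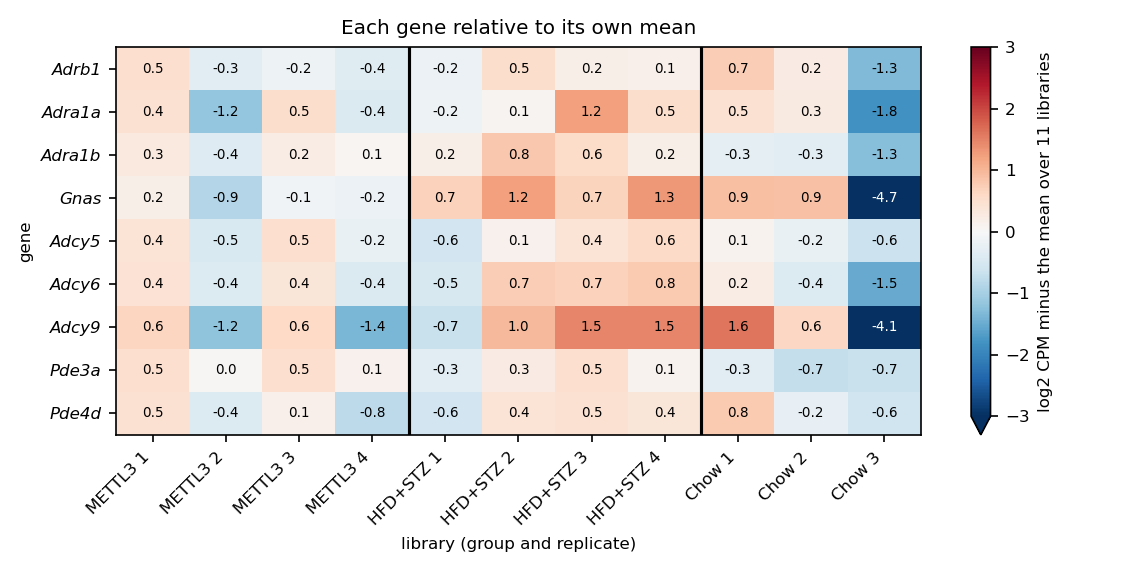
Log2 CPM of each gene (rows) in each library (columns) minus that gene's mean over the 11 libraries; red is above the mean, blue below, and the colour scale ends at -3 and 3. Columns METTL3 2, METTL3 4, HFD+STZ 1 and Chow 3 are mostly blue, and the deepest values are those of Gnas and Adcy9 in Chow 3.

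Levels of different genes were compared per kilobase of the deposited gene length, as CPM per kilobase over all 11 libraries. Adcy6 was the highest at 23.0 ± 9.68 CPM per kilobase (SD, n = 11) and exceeded Adcy5 in all 11 libraries. Adcy5 (11.8 ± 3.52), Adra1b (10.8 ± 3.72) and Adrb1 (9.65 ± 3.29) followed within each other's spread, each above the next in only 6 to 8 libraries. Pde3a came next at 7.79 ± 2.27 CPM per kilobase and exceeded Gnas, at 5.04 ± 2.74, in 8 libraries. Adcy9 (2.35 ± 1.64), Adra1a (1.83 ± 0.906) and Pde4d (1.35 ± 0.485) were the lowest and were not separated from each other beyond their spread. Gene length decides part of this order. Per kilobase of the longest transcript, Gnas stood at 14.3 CPM per kilobase, second to Adcy6 at 25.8, and Pde4d (3.85) and Adra1a (3.73) lay above Adcy9 (2.45).

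Ratios of related genes within a library do not depend on the scaling between libraries. Adcy6 exceeded Adcy5 per kilobase by a log2 ratio of 0.91, 0.93, 0.73 and 0.67 in METTL3 hearts, 0.98, 1.49, 1.16 and 1.10 in HFD+STZ hearts, and 1.01, 0.69 and 0.03 in Chow hearts. The METTL3 values all lay below the HFD+STZ values, by a small margin. The log2 ratio of Pde4d to Pde3a averaged -3.01 ± 0.37 in METTL3 hearts (SD, n = 4), -2.52 ± 0.22 in HFD+STZ hearts (SD, n = 4) and -2.01 ± 0.54 in Chow hearts (SD, n = 3). Every METTL3 library lay below every Chow library, by a small margin, the highest METTL3 value being -2.61 and the lowest Chow value -2.51. Transcript GC content is 49.8% for Pde4d and 43.0% for Pde3a. No GC offset was applied to these ratios, and the part of GC content in them was not tested. The log2 ratio of Adrb1 to Adra1b, the beta-1 to alpha-1B receptor message, averaged -0.30 ± 0.32 in METTL3 hearts, -0.42 ± 0.16 in HFD+STZ hearts and 0.37 ± 0.54 in Chow hearts. Chow replicates 1 and 2, at 0.89 and 0.42, exceeded every other library in that ratio, while Chow replicate 3 stood at -0.19, within the range of the METTL3 and HFD+STZ hearts. Adra1b exceeded Adra1a per kilobase in all 11 libraries, by log2 ratios of 1.90 to 3.45, with overlap between all groups. These ratios are descriptions with no test. Per kilobase of the longest transcript the mean log2 ratio over all libraries was 1.66 for Adra1b to Adra1a and -1.09 for Pde4d to Pde3a, and such a change of length shifts every library alike.

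**Figure D3:**
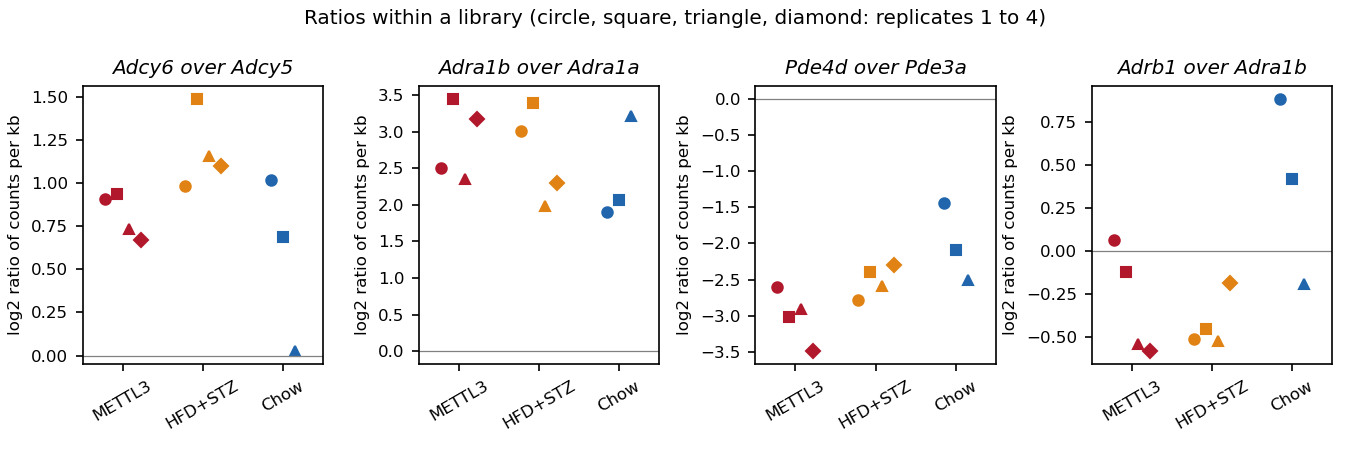
Log2 ratios of counts per kilobase of 4 gene pairs (y axis) within each library, by group on the x axis, with symbols for replicates 1 to 4. Adrb1 over Adra1b is above 0 in METTL3 replicate 1 and Chow replicates 1 and 2, and Pde4d over Pde3a is lower in every METTL3 heart than in every Chow heart.

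The first comparison asked how HFD+STZ hearts differed from Chow hearts. None of the 9 genes passed the edgeR quasi-likelihood test at a Benjamini-Hochberg adjusted p of 0.05, a call made for 25 of 14862 genes (0.168%). Adra1b came nearest: it averaged 47.0 ± 10.4 CPM in HFD+STZ hearts (SD, n = 4) and 22.9 ± 7.79 CPM in Chow hearts (SD, n = 3), a fitted 2.05-fold difference. Its log2 fold change was 1.03 (SE 0.27, 95% interval 0.46 to 1.61) at adjusted p = 0.166 (edgeR, Benjamini-Hochberg). Adra1b was also the only member whose groups did not overlap, a gap in this direction found for 5.52% of all genes tested.

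For Pde3a the averages were 106 ± 24.7 CPM in HFD+STZ hearts and 64.7 ± 9.62 CPM in Chow hearts, with a log2 fold change of 0.72 (SE 0.22) at adjusted p = 0.243 (edgeR, Benjamini-Hochberg). Adcy6 averaged 203 ± 67.5 CPM in HFD+STZ hearts and 107 ± 57.8 CPM in Chow hearts, a log2 fold change of 0.92 (SE 0.40), adjusted p = 0.392 by the same test. These 3 genes had an unadjusted p under 0.05, all higher in HFD+STZ hearts, as did 5.58% of all genes tested. DESeq2 called 1 member, Adra1b (adjusted p 0.0160), and 2.07% of all genes. The limma voom fit with quality weights called Adra1b, Pde3a and Adcy6, and 13.1% of all genes. Over 26 alternative settings the adjusted p of Adra1b ran from 0.00324 to 1.00.

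The beta-1 receptor gene Adrb1 had a log2 fold change of 0.07 (SE 0.38), with a 95% interval of -0.74 to 0.89. For the remaining genes the log2 fold changes were 0.68 for Gnas (SE 0.74), 0.59 for Adra1a (SE 0.52), 0.43 for Adcy5 (SE 0.30), 0.39 for Adcy9 (SE 0.86) and 0.12 for Pde4d (SE 0.37). All 9 log2 fold changes were thus above 0, with a median of 0.59, where 48.4% of all genes tested were above 0 and their median was -0.02. That count rested on Chow replicate 3: without it, 6 of 9 were above 0, with a median of 0.16, and Adrb1 stood at -0.31, Adcy9 at -0.17 and Pde4d at -0.13. Without that library the log2 fold change of Gnas was 0.11 and that of Adcy6 0.59. With the sample code range in the model 5 of 9 were above 0. The earlier code range holds no Chow heart. Within codes 78 to 98 alone, a setting added after seeing the data, 1 HFD+STZ heart stood against 3 Chow hearts and was assumed to vary as they do: 3 of 9 were above 0, Adra1b (0.75), Gnas (0.36) and Pde3a (0.22), and none passed.

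**Figure D4:**
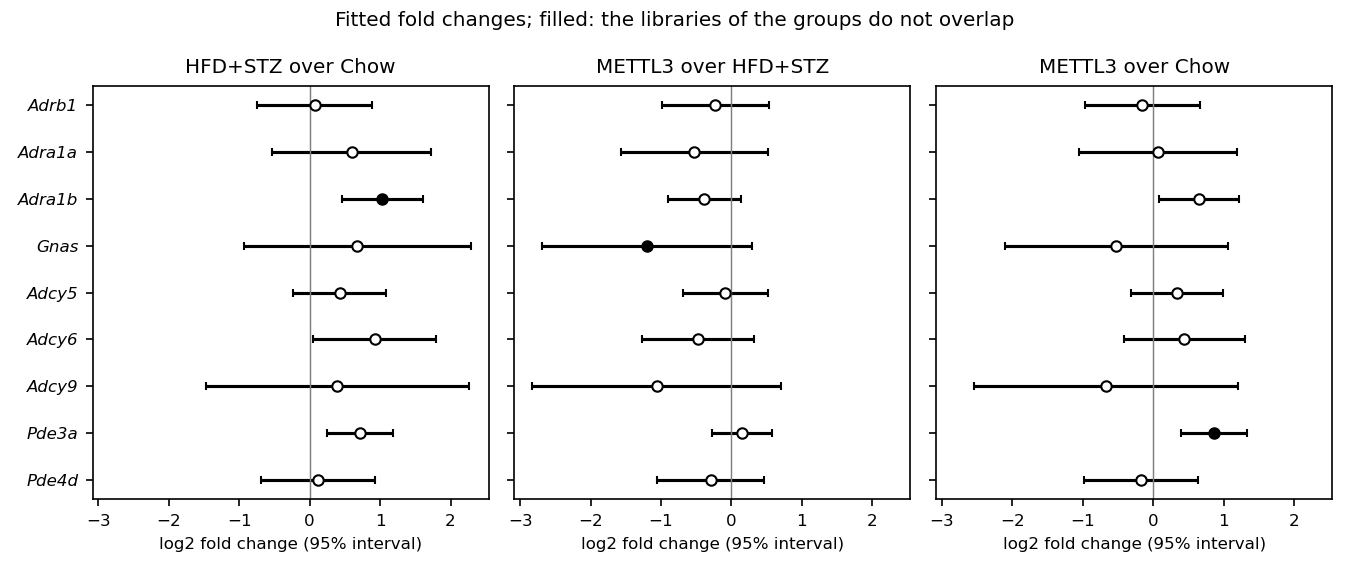
Fitted log2 fold changes (x axis) of the 9 genes (rows) with 95% intervals from the edgeR fit, in 3 panels for the 3 comparisons; filled points mark genes whose groups do not overlap. Intervals exclude 0 for Adra1b, Adcy6 and Pde3a in HFD+STZ over Chow and for Adra1b and Pde3a in METTL3 over Chow, and for no gene in METTL3 over HFD+STZ.

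The second comparison set METTL3 hearts against HFD+STZ hearts, which share the HFD+STZ treatment and differ in AAV METTL3. None of the 14862 genes passed the edgeR threshold (0%), so no member did either. An unadjusted p under 0.05 was found for 1346 genes (9.06%), none of them a member, and the DESeq2 and voom fits called 139 (0.935%) and 395 (2.66%), again without a member. Gnas was the gene with the widest gap: it averaged 35.5 ± 9.84 CPM in METTL3 hearts and 81.4 ± 19.2 CPM in HFD+STZ hearts (SD, n = 4 each), and the groups did not overlap, a gap in this direction found for 4.14% of genes tested. Its log2 fold change was -1.20 (SE 0.69, 95% interval -2.69 to 0.30) at adjusted p = 0.640 (edgeR, Benjamini-Hochberg).

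The Gnas spread in that fit includes Chow replicate 3, since all 11 libraries share 1 estimate. Without Chow replicate 3 the Gnas log2 fold change was -1.21, at adjusted p = 0.054 (edgeR, Benjamini-Hochberg). Without both Chow replicate 3 and HFD+STZ replicate 1, a setting chosen after seeing the data, it was -1.30 with an adjusted p of 0.0167, past the threshold. Gnas was the single member called there, among 403 of 15017 genes. Within sample codes 25 to 33 alone, 3 METTL3 against 3 HFD+STZ hearts, it was -1.30 with an adjusted p of 0.095. Between the single METTL3 and the single HFD+STZ heart of codes 78 to 98 it was -0.90. Over 27 alternative settings the adjusted p of Gnas ran from 0.0167 to 1.00.

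Adcy9 averaged 7.81 ± 5.28 CPM in METTL3 hearts and 16.4 ± 8.16 CPM in HFD+STZ hearts, with a log2 fold change of -1.06 (SE 0.81). Adcy6 averaged 146 ± 46.3 CPM in METTL3 hearts and 203 ± 67.5 CPM in HFD+STZ hearts, with a log2 fold change of -0.48 (SE 0.37). Among the receptors the log2 fold changes were -0.52 for Adra1a (SE 0.48), -0.38 for Adra1b (SE 0.24) and -0.23 for Adrb1 (SE 0.35). Those of the last 3 genes were -0.30 for Pde4d (SE 0.35), -0.09 for Adcy5 (SE 0.28) and 0.15 for Pde3a (SE 0.20).

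Of the 9 log2 fold changes 8 were below 0, with a median of -0.38, where 50.4% of all genes tested were below 0 and their median was near 0. In this comparison the median log2 fold change of all genes was 0.30 in the fifth of genes lowest in transcript GC content and -0.23 in the fifth highest in it. Of the 9 members, 8 lay above the median GC content of all genes tested, and Pde3a, the one above 0, lay below it. The other 8 are given from the richest in GC to the poorest. Adcy5 (59.5%) stood at -0.09, Adrb1 (58.8%) at -0.23, Gnas (57.8%) at -1.20 and Adcy9 (57.0%) at -1.06. Adcy6 (55.4%) stood at -0.48, Adra1b (54.5%) at -0.38, Adra1a (50.1%) at -0.52 and Pde4d (49.8%) at -0.30. With an offset for GC content and length, 7 of 9 were below 0 and the median was -0.24. Gnas then stood at -0.92 and Adcy6 at -0.25, while Adcy5 and Adrb1 turned to 0.22 and 0.08 and Pde3a to -0.04. The part of GC content in these values was not tested beyond that offset.

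The third comparison set METTL3 hearts against Chow hearts, and it shares the METTL3 libraries with the second and the Chow libraries with the first, as those share the HFD+STZ libraries. None of the 9 genes passed, where 475 of 14862 genes did (3.2%). Pde3a missed the threshold narrowly: it averaged 118 ± 19.7 CPM in METTL3 hearts (SD, n = 4) and 64.7 ± 9.62 CPM in Chow hearts (SD, n = 3), a fitted 1.82-fold difference. The log2 fold change was 0.87 (SE 0.22, 95% interval 0.40 to 1.34), at adjusted p = 0.0501 (edgeR, Benjamini-Hochberg). Its groups did not overlap, a gap in this direction found for 10.5% of all genes tested.

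The Pde3a call depended on the setting. DESeq2 (adjusted p 0.00483, with 10.2% of all genes called) and voom (0.000942, with 20.7% called) placed it past the threshold, as did 6 of the other settings tried. Counts of all genes past the threshold under the other settings are given further below. With the GC and length offset its log2 fold change was 0.49 with an edgeR adjusted p of 0.232, and with the sample code range in the model 0.55 and 0.330. Within codes 78 to 98 alone, 1 METTL3 heart against 3 Chow hearts, they were 0.66 and 0.944. Over 26 alternative settings its adjusted p ran from 0.000942 to 0.944. The antisense gene Gm28523 overlaps Pde3a exons and had 3 to 31 counts per library, against 1071 to 1931 for Pde3a.

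Adra1b averaged 36.0 ± 6.97 CPM in METTL3 hearts and 22.9 ± 7.79 CPM in Chow hearts, with a log2 fold change of 0.65 (SE 0.26) at adjusted p = 0.176 (edgeR, Benjamini-Hochberg). Adra1b and Pde3a had an unadjusted p under 0.05, both higher in METTL3 hearts, as did 10.6% of all genes tested. Gnas averaged 35.5 ± 9.84 CPM in METTL3 hearts and 50.9 ± 42.8 CPM in Chow hearts, with a log2 fold change of -0.52 (SE 0.73). Leaving out Chow replicate 3, at 1.46 CPM, brought it to -1.10 at adjusted p = 0.0239 (edgeR, Benjamini-Hochberg), past the threshold. In that fit 750 of 15231 genes passed. The adjusted p of Gnas ran from 0.0135 to 0.990 over 26 alternative settings. The other log2 fold changes were -0.67 for Adcy9 (SE 0.87), 0.44 for Adcy6 (SE 0.40), 0.34 for Adcy5 (SE 0.30), -0.17 for Pde4d (SE 0.37), -0.16 for Adrb1 (SE 0.38) and 0.07 for Adra1a (SE 0.52). Of the 9, 5 were above 0, against 49.2% of all genes tested, with a median of 0.07, and without Chow replicate 3 the count was 4. Within codes 78 to 98 alone it was 2, Adra1b (0.61) and Pde3a (0.66).

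The rest of the pathway was read from 14 lists of 134 further genes, of which 128 could be tested. Adrb3, Adra2a, Adcy2, Adcy10, Th and Slc6a2 had too few counts. In HFD+STZ over Chow none of the 128 passed the edgeR threshold, against 0.168% of all genes, and 17 had an unadjusted p under 0.05, as did 12.1% of all genes. Of these, 9 were higher and 8 lower, against 5.58% and 6.53% of all genes. DESeq2 called 3 and voom 23, where they called 2.07% and 13.1% of all genes. In METTL3 over HFD+STZ none passed either, and 10 had an unadjusted p under 0.05, as did 9.06% of all genes. Of these, 9 were higher and 1 lower, against 5.43% and 3.63% of all genes. DESeq2 called 2 and voom 6, where they called 0.935% and 2.66% of all genes. In METTL3 over Chow 8 of 128 passed, 6 higher and 2 lower, against 1.82% and 1.37% of all genes.

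Those 8 came from 6 of the lists and are named here with their METTL3 over Chow values, each with an edgeR Benjamini-Hochberg adjusted p between 0.0279 and 0.0455. Of 18 other G protein subunits, Gnai1, an inhibitory alpha subunit, rose to 14.6 CPM in METTL3 hearts, against 6.55 CPM in Chow hearts (log2 fold change 1.15, SE 0.25). Of 15 other phosphodiesterases, Pde1a, which calcium-calmodulin activates, rose to 16.7 CPM, against 7.97 CPM in Chow hearts (1.07, SE 0.21). The cAMP-specific Pde7a rose to 57.8 CPM, against 33.4 CPM in Chow hearts (0.79, SE 0.19). Of 8 other direct cAMP effectors, the pacemaker channel gene Hcn2 fell to 11.5 CPM, against 27.6 CPM in Chow hearts (-1.26, SE 0.25).

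Of 13 genes of cAMP-responsive transcription, Ppargc1a, a coactivator of mitochondrial genes, rose to 155 CPM in METTL3 hearts, against 56.8 CPM in Chow hearts (log2 fold change 1.45, SE 0.30). The nuclear receptor gene Nr4a1 fell to 19.5 CPM, against 61.3 CPM in Chow hearts (-1.65, SE 0.38), so the list moved both ways. On the alpha-1 side, 1 of 8 effector genes passed, Plcb4, a phospholipase C, at 131 CPM in METTL3 hearts and 64.5 CPM in Chow hearts (1.03, SE 0.21). Of 7 tested genes of catecholamine supply and clearance, Maob, which oxidises monoamines, rose to 61.7 CPM, against 28.9 CPM in Chow hearts (1.09, SE 0.22). All 8 had groups that did not overlap, which adds nothing to the calls, since the same libraries made them. Such a gap was found for 10.5% of all genes higher and for 1228 of 14862 lower. The macrophage marker sums of METTL3 and Chow hearts, given above, did not overlap either. Without METTL3 replicate 1, 3 or 4, or without Chow replicate 2, the count of calls was 0, as it was within codes 78 to 98 alone, and with the GC and length offset Maob alone passed.

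**Figure D5:**
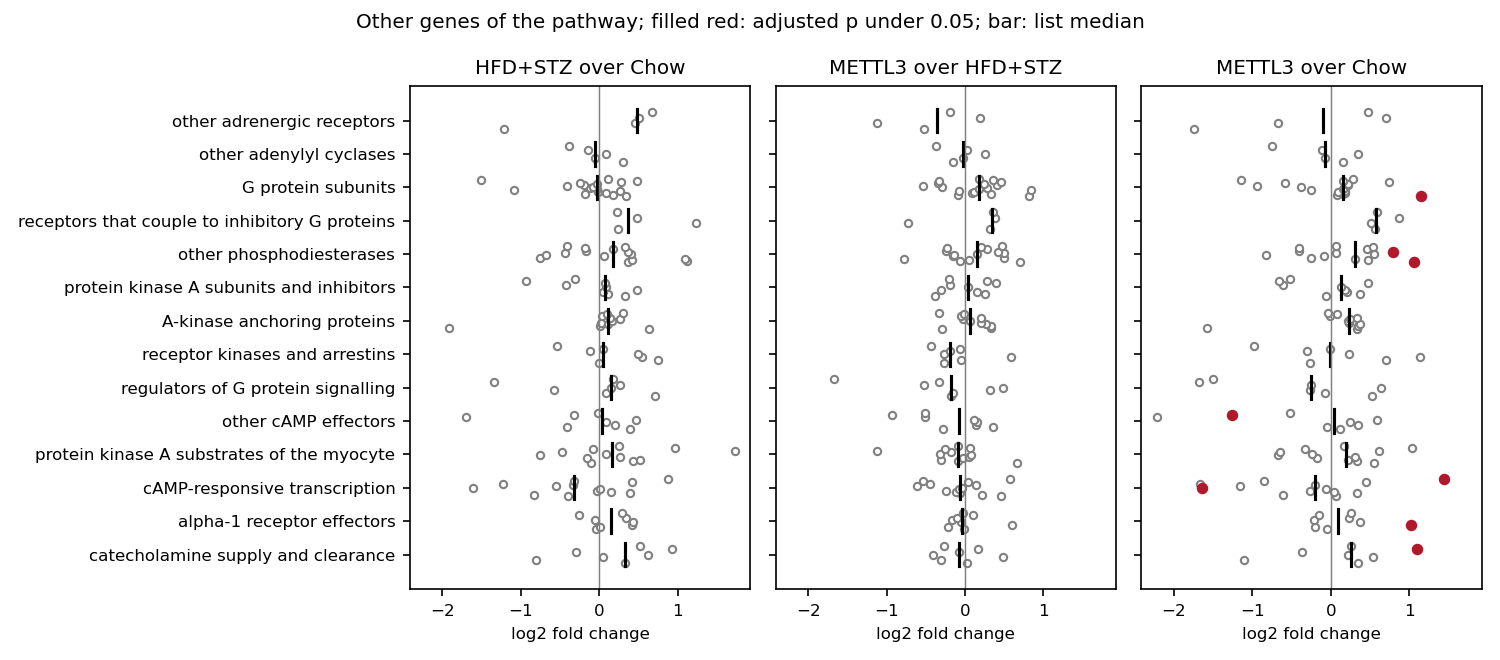
Fitted log2 fold changes (x axis) of the 128 other pathway genes tested, 1 point per gene, in 14 lists (rows) and 3 comparisons (panels); black bars are list medians and red points passed the edgeR threshold. Red points occur only in METTL3 over Chow, 6 to the right of 0 and 2 to the left.

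Of the receptors' own regulators, the beta-arrestin gene Arrb2 stood at -0.98 (SE 0.26) in METTL3 over Chow, adjusted p 0.0595 by edgeR, and the receptor kinase gene Grk5 at 0.50 (SE 0.19) in HFD+STZ over Chow, adjusted p 0.345. Neither passed.

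None of the 9 protein kinase A subunit and inhibitor genes and none of the 12 substrate genes passed in any comparison. Prkacb, a catalytic subunit, had a log2 fold change of 0.37 (SE 0.14) in METTL3 over Chow. Pln, the calcium pump inhibitor phospholamban, stood at 2152 CPM in METTL3 hearts and 1364 CPM in HFD+STZ hearts, a log2 fold change of 0.66 (SE 0.18) at adjusted p = 0.35 (edgeR, Benjamini-Hochberg), with groups that did not overlap. Of the other lists, the smallest unadjusted p belonged to Akap5, a kinase anchor, at -1.91 (SE 0.57) in HFD+STZ over Chow, to S1pr1, a receptor coupled to inhibitory G proteins, at 0.87 (SE 0.24) in METTL3 over Chow, to Rgs10, a G protein regulator, at -1.68 (SE 0.53) in METTL3 over Chow, and to Adcy4, another cyclase, at 0.34 (SE 0.21) in METTL3 over Chow.

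Genes with the most similar profile over the 11 libraries were found by the root mean square difference of log2 CPM after each gene's mean was taken off, among 9727 genes of at least 5 mean CPM. For Pde3a these were Ocrl (0.0975) and Psme4 (0.111), against 0.427 for Pde3a about its own mean. For Adra1b they were Mapk10 (0.153) and Elmod3 (0.162), against 0.537. For Adrb1 they were Gata4 (0.190) and Tsc1 (0.197), against 0.541. For Adcy5 they were Nceh1 and Atp6v0a2, for Adcy6 Clec16a and Paqr9, for Adra1a Cdkl1 and Garem1, and for Pde4d Klhl21 and Nhlrc2, at 0.136 to 0.259. Gnas (Fgd1 at 0.307, Carm1 at 0.371) and Adcy9 (Pdpr at 0.376, Ankrd52 at 0.388) had no closer gene, and both have the deep value in Chow replicate 3. No member was among the 2 nearest genes of another member. The libraries share depth and scaling, so these values describe the profiles and nothing more.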

How the data were processed

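RNA of whole hearts was depleted of ribosomal RNA and made into libraries with RiboZero and NEB kits, per the labels' protocols. The authors deposited whole-number counts per gene, and FastQC, Salmon and build mm10 appear in the submitters' processing notes. For the annotation release, strand setting and handling of shared reads, the sources used here give nothing. Antisense genes overlap exons of Gnas, Adcy6 and Pde3a, so their reads cannot be told apart if strand was ignored. No label says that replicates came from separate animals, so p-values reflect how far these samples spread, which may be technical.

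Differences in the counts were tested in edgeR 4.0.16 (R 4.3.3) with TMM scaling, filterByExpr (minimum count 10, minimum total 15), group means of all 11 libraries, the quasi-likelihood test and Benjamini-Hochberg adjustment over 14862 genes at 0.05. Log2 CPM used a prior count of 2. Depth was 13900531 to 16952639 counts per library, and intervals cover counting error and the modelled spread only. The procedure was tested on simulated counts with known changes. Results are given for HFD+STZ over Chow, METTL3 over HFD+STZ and METTL3 over Chow, in that order. Of simulated log2 changes of 1, it recovered 22%, 38% and 12%, so most were missed. Of simulated log2 changes of 2, it recovered 86%, 90% and 91%. False calls made up 3.57%, 4.48% and 2.83% of calls. Gene lengths are those deposited, except in the GC and length offset, which used exon lengths from GENCODE M21. GC content and the longest transcripts also come from M21, which holds 54409 of the 54532 identifiers. The deposited coordinates of Adrb1 differ from those of M21, and those of the other members do not.

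The 9 genes and all lists were chosen with earlier results of these data known. Named besides the members are Mettl3, pathway genes past the threshold, up to 2 genes per list with the smallest p, and the 2 genes nearest to each member's profile. Some genes that this rule names are not reported here. Alternatives were DESeq2 1.42.0, limma 3.58.1 voom with quality weights, other scalings and filters, robust moderation, a fit of just the compared groups, a block for replicate number, the sample code range, GC and length offsets (loess, span 0.5), and leaving out each library. A fit without HFD+STZ replicate 1 and Chow replicate 3, and one of codes 78 to 98 alone, were added after seeing the data.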

Additional observations from a re-analysis of the deposited data

Results flagged for a closer look

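In HFD+STZ hearts, Adcy6 in replicate 1 lay at 102 CPM, far from the other replicates at 229 to 243 CPM, a gap of 0.898 of the group's whole range. Pde4d in the same library lay at 10.3 CPM, where the others had 19.6 to 21 CPM, a gap of 0.866 of the range. Both gaps exceed Dixon's 95% critical value for 4 samples. These were 2 of 28 groups of 4 examined, and chance flags about 1 in 20. Without HFD+STZ replicate 1, the log2 fold change of Adcy6 was 1.14 in HFD+STZ over Chow and -0.71 in METTL3 over HFD+STZ, and that of Pde4d was 0.32 and -0.49, none of them past the edgeR threshold. Groups of 3, so all Chow values, were not examined in this way.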

How the results depend on the processing

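The 9 log2 fold changes were recomputed under 26 alternative settings in HFD+STZ over Chow, 27 in METTL3 over HFD+STZ and 26 in METTL3 over Chow. Of the resulting 234, 243 and 234 values, 210, 231 and 202 kept their direction and their side of the threshold, 7, 1 and 10 newly passed it, and 17, 11 and 22 turned. Some calls and signs turn on a single library, and all Chow hearts lie in 1 sample code range. With 3 or 4 hearts a group, genes that did not pass are not shown to be unchanged. Strand, shared reads and gene length limit comparisons between genes. The cause of the changes below was not tested.

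In HFD+STZ over Chow, the members passing numbered 1 with DESeq2, 3 with voom, 1 with no filter and 2 without Chow replicate 3 and HFD+STZ replicate 1 together. The other pathway genes passing numbered 3, 23, 3 and 7 under the same settings, and 0 to 4 when each library was left out in turn, under which 0 members passed. Of all genes, 2.07%, 13.1%, 190 of 27239 and 493 of 15017 passed under those 4 settings. Leaving out 1 library gave 1 of 15297 to 215 of 14624 genes. Adrb1 turned to -0.049 with voom, to -0.27 with the code range and to -0.21 without the pair of libraries. With the code range Adcy5 turned to -0.13, Adcy9 to -1.17 and Pde4d to -0.64. Within codes 78 to 98 alone Adrb1 stood at -0.29, Adra1a at -0.093, Adcy5 at -0.35, Adcy6 at -0.075, Adcy9 at -1.31 and Pde4d at -0.67. Leaving out 1 library gave -0.31 to 0.53 for Adrb1, -0.17 to 1.36 for Adcy9 and -0.13 to 0.65 for Pde4d.

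In METTL3 over HFD+STZ, 1 member and 5 other pathway genes passed without the pair of libraries, 2 other genes with DESeq2 and 6 with voom. Of all genes, 403 of 15017, 0.935% and 2.66% passed under those settings. Leaving out 1 library let 0 members and 0 other genes pass, and 0 of all genes tested. The GC and length offset turned Adrb1 to 0.075, Adcy5 to 0.22 and Pde3a to -0.044, and the replicate block with that offset gave 0.00044, 0.21 and -0.027 in that order. Codes 78 to 98 alone gave 0.33 for Adcy5 and 0.011 for Adcy6. Leaving out 1 library gave -0.28 to 0.064 for Adcy5.

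In METTL3 over Chow, 1 member passed with DESeq2, voom, no filter, a stricter filter or robust moderation, 2 without the pair of libraries, and 0 to 1 when 1 library was left out. Of all genes, 10.2% passed with DESeq2, 20.7% with voom, 747 of 27239 with no filter and 1258 of 15017 without the pair. The stricter filter passed 477 of 13329 genes and robust moderation 469 of 14862. The other pathway genes passing numbered 17 with DESeq2, 28 with voom, 15 without the pair, 1 with the GC and length offset, and 0 with the replicate block, that block with the offset, the code range, codes 78 to 98 alone or only the groups compared. They numbered 0 to 12 when 1 library was left out, where 34 of 15297 to 750 of 15231 genes passed in all. Of 14862 genes, 106 passed with the GC and length offset, 5 with the replicate block, 9 with both and 1 with the code range. Only the groups compared gave 54 of 14213 genes. With the code range Adra1a stood at -0.48, Adcy5 at -0.18 and Adcy6 at -0.24, and within codes 78 to 98 alone they stood at -0.40, -0.024 and -0.064 in that order. Adra1a was -0.22 with voom, -0.0020 with upper-quartile scaling and -0.37 without the pair, and Pde4d was 0.0019 with voom. Adrb1 was 0.16 with the GC and length offset. Leaving out 1 library gave -0.56 to 0.29 for Adrb1, -0.37 to 0.42 for Adra1a, -1.24 to 0.28 for Adcy9 and -0.44 to 0.34 for Pde4d.

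The replicate numbers showed no sign of pairing the samples, though library-wide correlations cannot exclude it. Those of same-numbered libraries ran from -0.41 to 0.33 over 10 pairs, and those of differently numbered ones from -0.40 to 0.42. With the replicate number as a block, 0 members passed in any comparison, as without it. In METTL3 over Chow the replicate block gave 0.0097 for Adrb1 and -0.013 for Adra1a, and the block with the GC and length offset gave 0.28 for Adrb1 and 0.17 for Gnas.

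Per kilobase of the longest transcript, levels moved to 14.3 CPM per kilobase for Gnas, 3.73 for Adra1a and 3.85 for Pde4d, and mean log2 ratios to 1.66 for Adra1b over Adra1a and -1.09 for Pde4d over Pde3a.

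Over all genes, counts past the threshold moved by over 1.5 times under several settings. In HFD+STZ over Chow 25 genes passed in edgeR, 307 in DESeq2 and 1954 in voom, in METTL3 over HFD+STZ 0, 139 and 395, and in METTL3 over Chow 475, 1509 and 3078. Without the pair of libraries the counts were 493, 403 and 1258. Within codes 78 to 98 alone edgeR called 0 genes in each, and 109, 246 and 697 had an unadjusted p under 0.05.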

Other observations

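METTL3 methylates adenosine mainly within the letters GGACT and close relatives. The longest transcripts of the 9 genes held a median of 0.951 GGACT per kilobase, against 1.02 over all genes tested, and 2 of 9 lay above that median. Adcy6 had the most at 2.15 per kilobase, followed by Adra1b at 1.80, and Adrb1 had the fewest at 0.339. Fold changes were not set against these densities.

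Chow replicate 3 differed from the mean of Chow replicates 1 and 2 by a log2 ratio of -5.77 for Adcy9 and -5.69 for Gnas, which is lower than in all but 0.362% and 0.371% of the 10236 tested genes of at least 5 mean CPM. For Adra1a the log2 ratio was -2.21 and for Adrb1 -1.84. For Pde3a it was -0.15, at the 46.7th percentile of those genes.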
